A study of Rattus norvegicus with 256 samples.

Results

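Mucins and goblet cell genes were followed through the rat body as 8 genes of the 14217 that the array names by a single symbol. They were chosen by name, though with earlier results of these data known. They are the gel-forming mucin Muc2, the membrane-bound mucins Muc1, Muc4 and Muc13, the secreted companions Tff3 and Fcgbp, and 2 genes of the cells that make them, Agr2 and Spdef. Each had 1 probeset of its own, and a further probeset was annotated both to Fcgbp and to its neighbouring paralogue Fcgbpl1. The 9 probesets came from 31042 on the array, and the signal of the shared one cannot be assigned to either paralogue. The samples were RAE230_2 arrays of 31 organs from Han Wistar-derived rats (AlpkHsdBrlHan:WIST), 5 male and 5 female, with RNA from bulk organ tissue and no age given in the labels. Of the arrays, 234 came from 26 organs that both sexes have, and 22 came from organs of a single sex. The 6 gut segments gave 58 arrays, 9 or 10 for each segment, and other organs gave 3 to 10.

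Mucus is a gel of large, heavily glycosylated mucins. In the intestine goblet cells fold MUC2 in the endoplasmic reticulum, pack it into granules and release it onto the surface together with trefoil factor 3 and the Fc gamma binding protein. Membrane-bound mucins stay on the apical face of epithelial cells, AGR2 is a disulfide isomerase of the endoplasmic reticulum needed for mucin folding, and SPDEF is an ETS-family transcription factor of secretory cell maturation.

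Of the 8 genes, 5 differed between caecum and colon, as described further on, and the promoter window of each of those 5 is shown for that reason. The sequences are RefSeq entries of build GRCr8, read 5′ to 3′ on the strand of the gene and ending at the base before the start that RefSeq's promoter table uses, at chr1:206228785-206229034 on the plus strand for Muc2, chr6:58435658-58435907 on the plus strand for Agr2, chr20:5787686-5787935 on the minus strand for Spdef, chr20:9199334-9199583 on the minus strand for Tff3 and chr1:92502519-92502768 on the plus strand for Fcgbp. For Muc2 and Fcgbp that start lies inside the whole span annotated for the gene, chr1:206225775-206261280 for Muc2 and chr1:92502461-92540658 for Fcgbp. Both windows lie wholly within the span of their gene. For Agr2, Spdef and Tff3 the start is the end of the gene's span. Distances below are to the start in the promoter table. Capitals mark a match, on either strand, to one of 5 motifs: the TATA box TATAAA, the Cdx-factor motif TTTATG, the GATA-factor motif AGATAA, the Fox-factor motif TGTTTAC and the E-box CAGCTG. In Muc2 the TATAAA match overlaps the AGATAA match that follows it.
Muc2: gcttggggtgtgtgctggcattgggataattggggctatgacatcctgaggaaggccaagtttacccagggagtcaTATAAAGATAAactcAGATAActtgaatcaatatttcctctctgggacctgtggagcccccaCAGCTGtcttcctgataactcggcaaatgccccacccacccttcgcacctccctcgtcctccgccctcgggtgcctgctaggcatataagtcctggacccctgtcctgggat
Agr2: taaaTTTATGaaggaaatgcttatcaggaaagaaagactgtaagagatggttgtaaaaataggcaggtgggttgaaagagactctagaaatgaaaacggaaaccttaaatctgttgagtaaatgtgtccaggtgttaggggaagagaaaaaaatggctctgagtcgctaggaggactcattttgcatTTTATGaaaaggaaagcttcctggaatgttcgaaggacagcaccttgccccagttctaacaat
Spdef: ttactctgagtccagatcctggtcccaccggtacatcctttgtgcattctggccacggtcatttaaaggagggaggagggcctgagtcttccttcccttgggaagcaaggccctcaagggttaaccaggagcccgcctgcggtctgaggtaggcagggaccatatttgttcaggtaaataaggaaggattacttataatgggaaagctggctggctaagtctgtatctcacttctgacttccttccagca
Tff3: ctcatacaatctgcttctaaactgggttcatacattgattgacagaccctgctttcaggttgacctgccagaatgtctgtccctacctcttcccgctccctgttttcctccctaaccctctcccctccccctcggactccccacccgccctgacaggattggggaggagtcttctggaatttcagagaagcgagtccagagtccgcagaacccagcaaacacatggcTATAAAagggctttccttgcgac
Fcgbp: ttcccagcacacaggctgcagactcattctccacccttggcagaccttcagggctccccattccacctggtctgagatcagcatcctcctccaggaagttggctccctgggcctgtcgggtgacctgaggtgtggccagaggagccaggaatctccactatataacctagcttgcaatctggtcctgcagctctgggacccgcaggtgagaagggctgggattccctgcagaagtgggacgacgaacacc
TATAAA was found 23 bases before the start in Tff3 and 174 bases before it in Muc2, and 12.9% of all 33469 promoters of this length held it. TTTATG occurred at 2 places in Agr2, 246 and 63 bases before the start, and in 11.4% of all promoters. Muc2 had AGATAA at 2 places, against 10.3% of promoters with any, and CAGCTG at 1, against 12%. TGTTTAC was in none of the windows of the 8 genes and in 3.21% of all. Spdef and Fcgbp held none of the 5 motifs. These are matches of letters only. In the same build Muc1 lies at chr2:176933312-176938497, and Muc4 (chr11:81513321-81575200) and Muc13 (chr11:80462350-80489773) share a chromosome.

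Some arrays stood apart in these genes or went against their labels, and results that rest on them are given with and without them. By Xist and Eif2s3y, 4 arrays outside the gut (Aorta male 3, Heart male 5, Bone Marrow male 5 and Bone Marrow female 2) were at odds with their sex label. All 58 gut arrays matched theirs. The mesenteric lymph node array of male 4 held the gut epithelium list (11 genes measured) at a mean log2 value of 11.49, against 3.57 to 5.42 in the other 7. Stomach male 1 held the list of enterocyte markers at 7.5, above the 2.9 to 4.31 of the other 9. Stomach female 1 held 12.76 for squamous epithelium markers and 11.03 for gastric markers, the lowest gastric value of the 10 stomachs. Duodenum female 1 held gastric markers at 10.48, and the acid pump gene Atp4a at 10.9 where every other duodenal array was at 2.2 or less. Values throughout are log2 GCRMA values. A mean above that of a linear signal of 100.4 was taken as expressed, which is the log2 threshold in the methods of the study.

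Muc2, Muc13, Tff3, Fcgbp, Agr2 and Spdef were expressed in all 5 bowel segments, and Muc1 in none of them. Muc2 and Muc13 were expressed in 5 of 31 organs, which were the 5 segments from duodenum to colon. Muc4 passed the threshold in 2 organs and Muc1 in 5, whereas Agr2 and Spdef passed it in 8 and Tff3 and Fcgbp in 9. In a bulk organ, fewer cells of a type and less RNA per cell cannot be told apart.

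**Figure D1:**
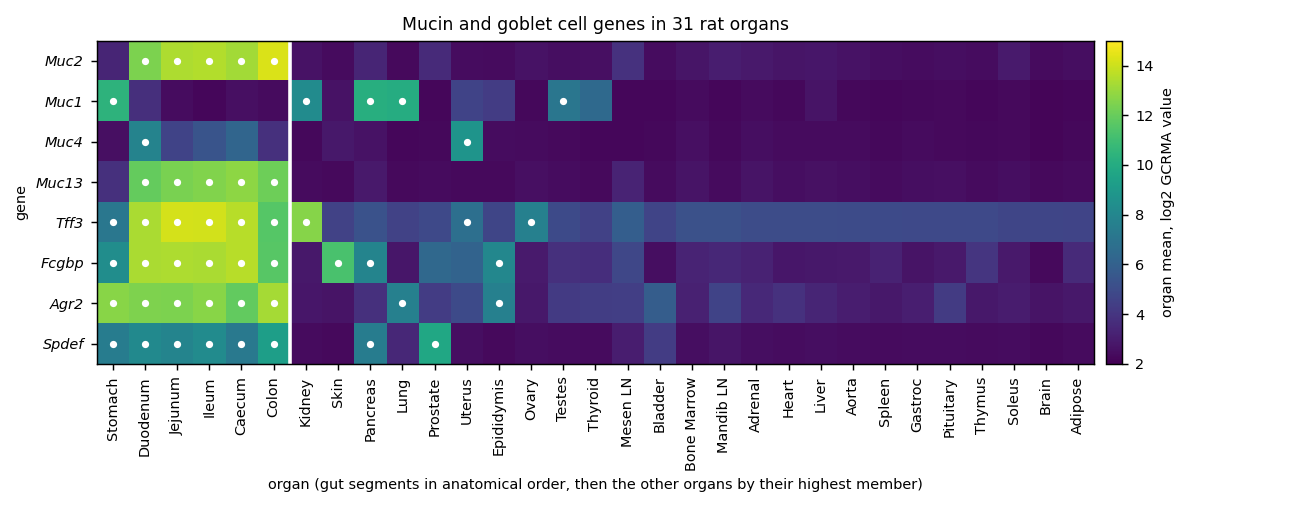
Organ means of the 8 genes (rows) in 31 organs (columns), as log2 GCRMA values, with the 6 gut segments in anatomical order on the left. White dots mark means above the expression threshold. Muc2 and Muc13 have dots in the 5 bowel segments alone, and Muc1 has them in stomach, kidney, pancreas, lung and testes.

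Muc2, which forms the gel itself, was at 14.24 ± 0.26 (SD, n = 10) in the colon, its highest organ. Ileum followed at 13.5 ± 0.2 (n = 10), jejunum at 13.38 ± 0.12 (n = 9), caecum at 13.21 ± 0.48 (n = 10) and duodenum at 12.48 ± 0.4 (n = 9). Each of these segments overlapped its neighbour in this order. No other organ had a mean above 3.86, which was that of the mesenteric lymph nodes and came from the 1 array already named: it read 12.91 and the other 7 read at most 3.15. Single arrays of prostate (male 1, 7.96), stomach (male 1, 7.91), soleus (female 2, 7.28) and pancreas (female 2, 7.17) also rose above the threshold while the others of their organ stayed at or below 4.01.

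Muc13, the membrane-bound mucin of the intestinal brush border, shared those 5 organs but was flatter along them. It was at 12.77 ± 0.32 in caecum, 12.53 ± 0.26 in ileum, 12.37 ± 0.23 in jejunum, 12.11 ± 0.49 in colon and 11.98 ± 0.81 in duodenum. The duodenal arrays, from 10.93 to 12.93, were all above those of the stomach, the next organ, which ran from 2.26 to 7.44 with the highest value again in male 1.

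Muc1 lines ducts, airways and stomach in textbook accounts, and its levels here left the bowel out. Stomach was highest at 10.39 ± 1.08 (n = 10), then pancreas at 10.13 ± 0.4 (n = 7), lung at 10.04 ± 0.5 (n = 10), kidney at 8.29 ± 0.88 (n = 10) and testes at 7.09 ± 1.23 (n = 4). Neighbours in this order overlapped. The thyroid, at 6.42 ± 0.46, had 4 of 10 arrays above the threshold without its mean passing. From jejunum to colon every one of the arrays was at or below 3.3.

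Muc1 in the duodenum moved with stomach transcripts. Its 9 arrays ran from 2.24 to 9.51 with a median of 2.28. Female 1, at 9.51, and male 5, at 5.78, were also the arrays with most Gkn1 (gastrokine of the stomach surface), at 14.84 and 12.49. Female 2 and male 1 had Muc1 at 3.3 and 3.35 with Gkn1 at 11.65 and 11.42, and the remaining 5 had Muc1 at or below 2.28 with Gkn1 at or below 7.95. The part of stomach tissue in these duodenal values was not tested.

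**Figure D2:**
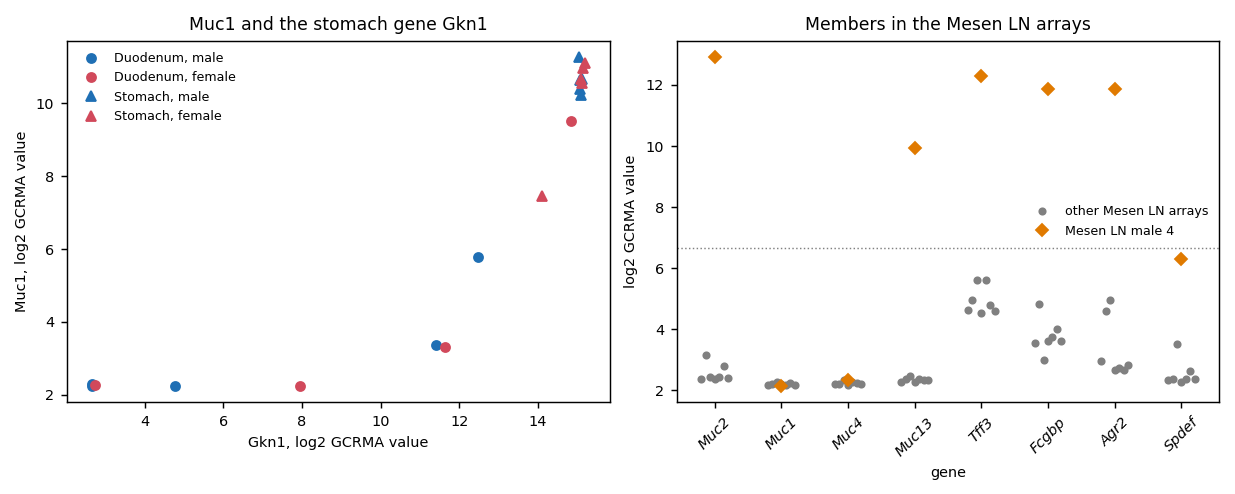
Left, Muc1 against Gkn1 in each array of duodenum (circles) and stomach (triangles), males blue and females red, both axes log2 GCRMA values. Right, the 8 genes in the 8 mesenteric lymph node (Mesen LN) arrays, with male 4 as an orange diamond and a dotted line at the expression threshold: male 4 has Muc2 at 12.91 and Muc1 at the level of the others.

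Muc4 is a membrane-bound mucin that also binds the receptor ErbB2. It was highest in the uterus, at 8.72 ± 0.87 (n = 5), and the arrays there (7.23, 9.52, 9.07, 8.84 and 8.93) overlapped those of the duodenum, at 7.8 ± 0.77 (n = 9, lowest 6.58). Caecum followed at 6.22 ± 0.61 with 3 of 10 arrays above the threshold, and ileum (5.4 ± 0.68), jejunum (4.74 ± 1.19) and colon (3.82 ± 1.23) had none.

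Tff3, the intestinal trefoil peptide, was at 14.13 ± 0.25 in jejunum and 14.12 ± 0.25 in ileum, then 13.62 ± 0.28 in caecum, 13.4 ± 0.44 in duodenum and 11.56 ± 0.54 in colon. The kidney stood between duodenum and colon at 12.65 ± 1.64, a spread that parted by sex. Outside gut and kidney it passed the threshold in ovary (7.65 ± 0.21, n = 5) and, narrowly, in uterus (6.74 ± 0.25, with 3 of 5 arrays above). In the stomach, at 7.17 ± 1.75, its 10 arrays ran from 4.71 to 9.99.

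Fcgbp, a large secreted protein that binds into the mucus, was at 13.6 ± 0.27 in caecum, with duodenum (13.41 ± 0.44), jejunum (13.38 ± 0.2) and ileum (13.36 ± 0.35) overlapping it and each other. Colon was at 11.6 ± 0.62 and did not overlap ileum. Skin, an organ with no goblet cells in textbook accounts, came next at 11.33 ± 0.9 (n = 9) and overlapped colon, while Muc2 in the same skin arrays was at or below 2.45. Stomach (8.37 ± 1.43), epididymis (8.04 ± 0.51, n = 3) and pancreas (7.92 ± 0.56, n = 7) were the other organs above the threshold. The probeset shared with Fcgbpl1 gave the same leading 9 organs, with skin at 12.15 ± 0.65, and added the uterus at 7.36 ± 0.53.

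Agr2 was high in stomach as well as in bowel: colon 13.24 ± 0.64, ileum 12.68 ± 0.16, stomach 12.68 ± 0.73, duodenum 12.47 ± 0.61, jejunum 12.46 ± 0.19 and caecum 11.9 ± 0.45. None of the caecal arrays fell to those of the next organs. Lung had 7.64 ± 0.67 with 9 of 10 arrays above the threshold. In the epididymis 2 arrays read 9.19 and 10.34 and the other read 3.51, so its mean stood for neither.

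Spdef was highest in an organ outside the gut, the prostate, at 9.72 ± 0.31 (n = 5), where it overlapped the colon at 9.27 ± 0.58. Ileum (8.26 ± 0.33), duodenum (8.13 ± 1.16), jejunum (7.84 ± 0.31), pancreas (7.48 ± 1.03), stomach (7.46 ± 1.45) and caecum (7.25 ± 0.5) followed. In the prostate, Muc2 was at 2.46 or less in the other 4 arrays beside male 1.

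Along the gut, comparisons came from 1 limma fit of the 58 arrays, with sexes weighted equally. A gene was called where a mean passed the threshold, the difference exceeded 2-fold and the Benjamini-Hochberg adjusted p over 31042 probesets was below 0.05. Neighbouring comparisons share the arrays of a segment, so each is given by its own values.

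**Figure D3:**
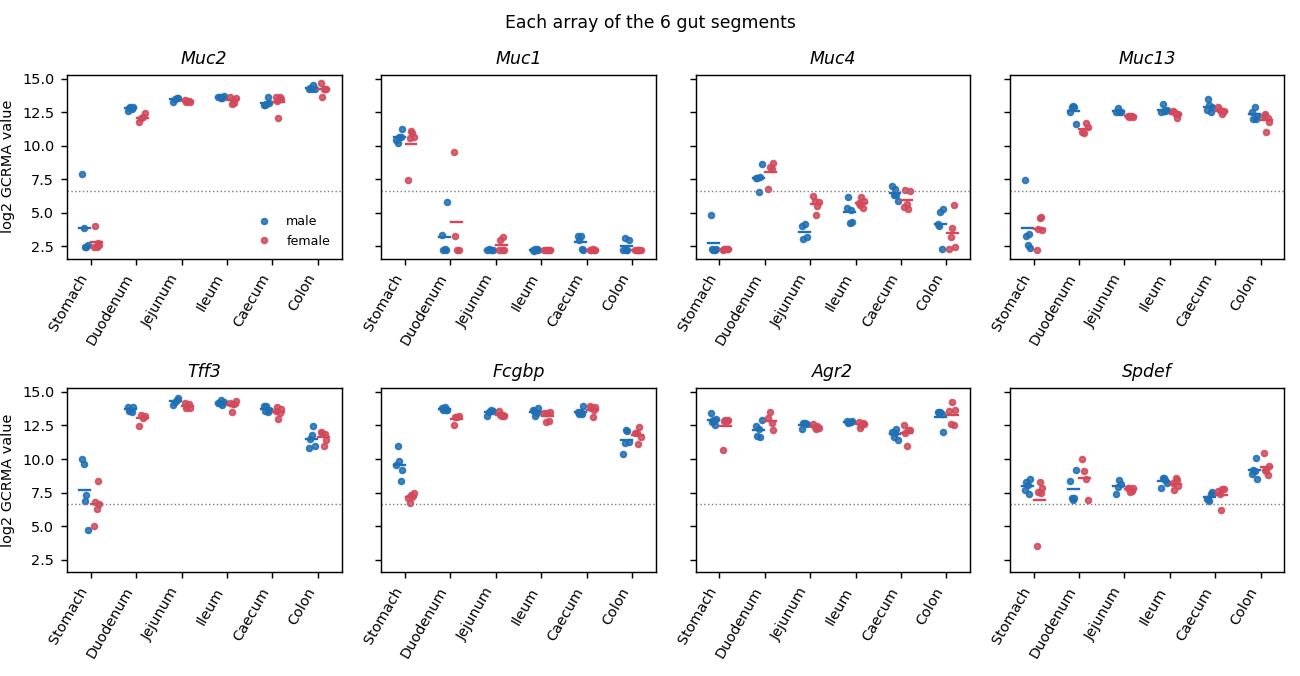
Each array of stomach, duodenum, jejunum, ileum, caecum and colon (x axis) for the 8 genes, males blue and females red, as log2 GCRMA values. Short lines are means by sex and the dotted line is the expression threshold. Tff3 and Fcgbp drop from caecum to colon while Muc2, Agr2 and Spdef are higher in colon.

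From stomach to duodenum, 5 members rose and 1 fell, where 9.68% of probesets were called in either direction (4.89% up, 4.79% down). Muc2 rose by 9.09 ± 0.35 (SE, log2), from stomach arrays between 2.42 and 7.91 to duodenal arrays between 11.79 and 12.87. Muc13 rose by 8.09 ± 0.34, Tff3 by 6.19 ± 0.36, Muc4 by 5.3 ± 0.37 and Fcgbp by 5 ± 0.2, and for these 5 genes the segments did not overlap, against 14.6% of expressed probesets. Muc1 fell by 6.64 ± 0.51 with overlap. The largest adjusted p among the 6 in limma was 1.64e-15. Agr2 differed by -0.18 ± 0.23 (adjusted p = 0.667) and Spdef by 0.72 ± 0.38 (adjusted p = 0.14). Without the 3 gut arrays that stood apart (stomach male 1, stomach female 1 and duodenum female 1), the same 6 were called, Muc1 at -7.87 and Muc2 at 9.59, and Spdef was at 0.03. The median of the 8 expressed members was 5.15, against 0.02 over 10878 expressed probesets.

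Within the small intestine, Muc4 was the 1 member that was called. It fell by 3.2 ± 0.38 from duodenum to jejunum (adjusted p = 5.59e-09, limma), where 1.89% of probesets were called and 0.696% were lower. The duodenal arrays, from 6.58 to 8.68, lay above all 9 jejunal arrays, from 3.06 to 6.22. Muc2 differed by 0.94 ± 0.36 between these segments (adjusted p = 0.0939 in limma) although its duodenal arrays, at most 12.87, lay below all jejunal ones, at least 13.24. Without the 3 arrays that stood apart the same difference was 0.89, with an adjusted p of 0.000391. From jejunum to ileum no member was called, against 2.02% of probesets, and the 6 expressed members differed by -0.03 to 0.41, with 0 of them at an unadjusted p below 0.05 in limma. Over these 2 steps the expressed members had medians of 0.03 and 0.12, against 0 and -0.01 over all expressed probesets.

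From ileum to caecum, Spdef was called lower at -1.01 ± 0.37 (adjusted p = 0.043, limma), where 4.43% of probesets were called and 2.23% were lower. Ileal arrays ran from 7.67 to 8.62 and caecal ones from 6.18 to 7.79, so the segments overlapped. In 10 fits that each left out 1 rat, the difference ran from -1.09 to -0.81 and the call held without female 1 or female 5 only. Without female 3 its adjusted p was 0.161. Agr2 differed by -0.78 ± 0.23 (adjusted p = 0.00864), which is under 2-fold. Tff3 was at -0.5 ± 0.35 and Muc2 at -0.29 ± 0.34, with adjusted p of 0.431 and 0.77. The expressed members had a median of -0.39, against 0.03 over all expressed probesets.

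Caecum and colon differed in 5 of the 8 members, and in both directions, where 1.81% of probesets were called (0.966% higher and 0.844% lower in colon). Muc2, Agr2 and Spdef were higher in colon, and Tff3 and Fcgbp were lower. The 6 expressed members had a median of 0.19, against -0.01 over 10257 expressed probesets, so the median shows neither direction.

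Spdef read 6.99, 7.05, 6.84, 7.37 and 7.54 in male caeca and 7.64, 7.41, 6.18, 7.73 and 7.79 in female caeca. In the colon it read 8.86, 9.18, 9.11, 10.06 and 8.52 in males and 10.43, 9.19, 9.09, 8.81 and 9.51 in females. All 10 colons were above all 10 caeca, and these segments did not overlap in 4.49% of expressed probesets. The difference was 2.02 ± 0.37, or 4.06-fold (adjusted p = 4.96e-05, limma).

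Agr2 ran from 10.98 to 12.52 in caeca (median 11.98) and from 12.05 to 14.22 in colons (median 13.46), with 1 colon, male 5, within the caecal range. It was 1.33 ± 0.23 higher in colon (adjusted p = 1.64e-05, limma). Muc2 ran from 12.05 to 13.66 in caeca and from 13.66 to 14.68 in colons, and the lowest caecum was female 3. Its difference of 1.03 ± 0.34 (adjusted p = 0.0331, limma) had the largest adjusted p of the 5. Leaving out 1 rat at a time gave 0.88 to 1.12, and the call held without male 1, male 4 or female 2 and was lost without any of the other 7, with an adjusted p of 0.145 without female 3. In 1 fit over all 31 organs the adjusted p was 0.115, and without the 3 gut arrays that stood apart it was 6e-06.

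Tff3 ran from 13.01 to 13.95 in caeca (median 13.63) and from 10.8 to 12.45 in colons (median 11.62). All colons were below all caeca, by 2.06 ± 0.35 in the means, or 4.18-fold (adjusted p = 1.76e-05, limma). Fcgbp ran from 13.12 to 13.92 in caeca (median 13.59) and from 10.36 to 12.38 in colons (median 11.79), again with no overlap. It fell by 2 ± 0.2, or 4.01-fold (adjusted p = 3.84e-11, limma), and the probeset shared with Fcgbpl1 fell by 1.67 ± 0.21. Calls for Spdef, Agr2, Tff3 and Fcgbp held in all 10 fits that left out 1 rat.

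Muc13 differed by -0.65 ± 0.33 between colon and caecum (adjusted p = 0.224). Muc4 was lower in colon by 2.39 ± 0.36 with an adjusted p of 1.34e-06 in limma, but both means lay below the expression threshold. The epithelium list, whose level is the mean of its markers, had 11 genes expressed, of which 0 were higher and 1 was lower in colon. Its mean level ran from 12.68 to 13.08 over the 10 caeca and from 12.21 to 12.68 over the 10 colons, and its part in these differences was not tested. The smooth muscle list, a measure of the muscle wall, had 0 of 10 called. Enterocyte list means were 8.45, 8.1 and 7.98 in caecum female 4, male 4 and female 1, against 6.02 to 7.07 in the other caeca. These arrays also had the highest caecal Muc2, at 13.66, 13.64 and 13.62. The part of uneven sampling within a segment was not tested.

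**Figure D4:**
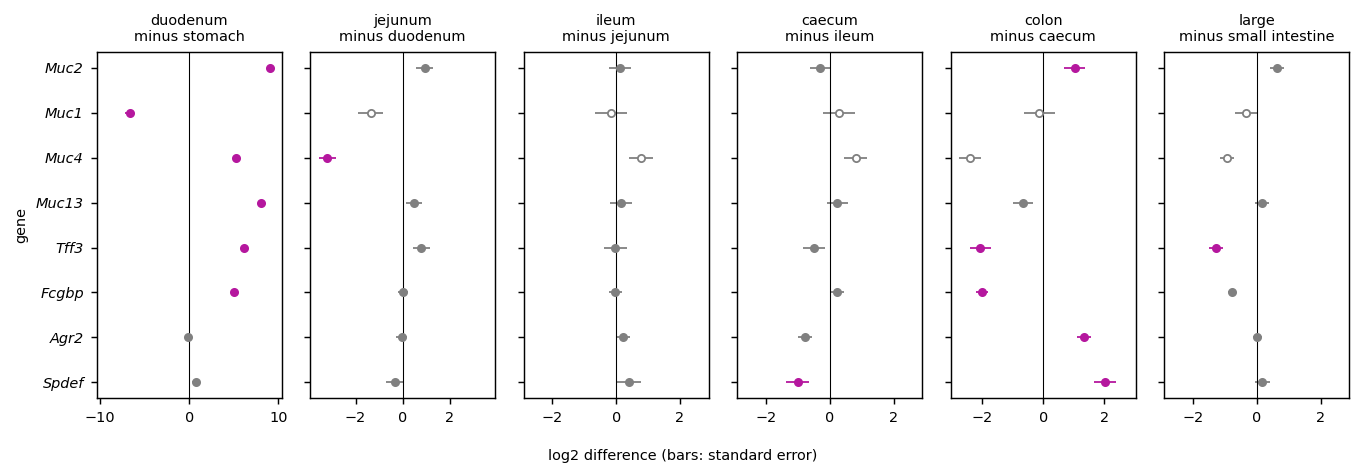
Log2 differences with standard errors (x axes) of the 8 genes for 5 pairs of neighbouring segments and for large minus small intestine, from the limma fit of 58 arrays. Magenta points passed the call and open points had no mean above the expression threshold; the x axes differ between panels. In colon minus caecum, Spdef is at 2.02 and Tff3 at -2.06.

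Taking caecum and colon together against duodenum, jejunum and ileum, 1 member was called, where 4.69% of probesets were called and 2.16% were lower. Tff3 was lower by 1.28 ± 0.23, or 2.43-fold (adjusted p = 8.18e-06, limma). Fcgbp at -0.77 ± 0.13 and Muc2 at 0.62 ± 0.22 had adjusted p of 1.79e-06 and 0.0244 but were under 2-fold. Agr2 was at 0.02 ± 0.15, Spdef at 0.17 ± 0.24 and Muc13 at 0.16 ± 0.21. The members' median of 0.09 lay close to the 0.02 of all expressed probesets.

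A list of other products of goblet and surface cells was read in the same comparison. Of its 15 expressed genes, 6 were higher and 3 lower in the large intestine, with a median of 0.72. Of all 31042 probesets, expressed or not, 2.53% were called higher and 2.16% lower in this comparison. List counts here and below are over expressed genes, so shares over all probesets are not matched to them. The trefoil genes Tff2 and Tff1 were higher by 2.77 ± 0.66 and 2.16 ± 0.66, and Guca2a, which encodes the hormone guanylin, by 1.89 ± 0.17. Muc3, a further membrane-bound mucin named here after its values were seen, was higher by 1.73 ± 0.12. Guca2b, uroguanylin, was lower by 5.09 ± 0.21, the chloride channel regulator Clca4 by 1.21 ± 0.41 and the lectin Zg16 by 1.08 ± 0.25. Tff2 and Tff1 also belong to the gastric list, and they stood high in the caecum, where Tff2 was at 12.96 ± 0.54 and Tff1 at 8.77 ± 0.77 against 5.03 ± 3.41 and 5.16 ± 1.12 in the colon.

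Between caecum and colon, that list had 0 genes higher and 4 lower in colon: Clca1, Clca4, Tff1 and Tff2, which are named here after their values were seen. Clca1, a secreted goblet cell metalloprotease, differed by -1.13 ± 0.21 (adjusted p = 6.48e-05, limma). Tff2 differed by -7.93 ± 1.01. Both secreted companions among the members were also lower in colon.

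Transcription factors and other regulators of the lineage formed the next list. Of 16 expressed, 2 were higher in the large intestine, the homeobox gene Cdx1 by 1.95 ± 0.19 and the secretory pathway factor Creb3l1 by 1.56 ± 0.17, and Gata4 was lower by 4.97 ± 0.17. Between caecum and colon, Creb3l1 (1.96 ± 0.25) and Creb3l4 (1.42 ± 0.27) were higher in colon, as Spdef was, and 0 were lower. Among genes of protein folding and granules, 23 were expressed in large against small intestine, of which 1 was called, the potassium channel Kcnn4 at -1.27 ± 0.2. From caecum to colon 3 of 22 rose: the stress sensor Atf6 (1.17 ± 0.13), the isomerase Pdia5 (1.05 ± 0.25) and the chloride cotransporter Slc12a2 (1.05 ± 0.18).

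The O-glycosylation list holds enzymes that build the O-linked glycans of mucins, but is not limited to these. Its genes were more often higher than lower in the large intestine. Of 23 expressed, 8 were higher and 2 lower. The sialyltransferases St6galnac6, St3gal1 and St6galnac2 were higher by 3.37 ± 0.18, 2.69 ± 0.18 and 1.84 ± 0.2, and St6gal1 and B3gnt5 were lower by 1.8 ± 0.12 and 1.56 ± 0.18. From caecum to colon 6 of 22 were higher and 0 lower. B3galt5, which adds galactose, rose by 2.6 ± 0.49 and C1galt1, the core 1 synthase, by 1.07 ± 0.2. These 2 were named after their values were seen. The lists' medians were 0.2 and 0.18, against 0.02 and -0.01 over all expressed probesets.

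Sex was compared in the 26 organs that both sexes have, with a limma fit for each organ. Of 208 pairs of member and organ, 46 were expressed and 3 were called, where 0.312% of all pairs of probeset and organ were. In 8 of the 46 the sexes did not overlap, against 6.54% of all expressed pairs. Unadjusted p-values were below 0.05 in 13 of the 46. Of the 3 calls, 2 were in the kidney and 1 in the duodenum.

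Tff3 in the kidney was the member with the largest sex difference called. Male kidneys read 14.27, 14.04, 14.13, 14.16 and 14.28. Female kidneys read 10.82, 10.85, 11.94, 10.97 and 11.0. Every male lay above every female, and the male mean of 14.18 ± 0.1 (SD, n = 5) stood beside 11.12 ± 0.47 in females. The difference of 3.06 ± 0.2, or 8.33-fold, had an adjusted p of 6.2e-05 in limma and read 2.99 to 3.26 when 1 rat was left out.

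Muc1 in the kidney ran the other way. Males read 7.91, 8.16, 7.88, 6.85 and 7.11, and females read 9.22, 8.43, 8.92, 8.97 and 9.48, with no overlap. Females were higher by 1.42 ± 0.29, or 2.68-fold (adjusted p = 0.0152, limma), and the call held in all 10 fits without 1 rat. In the kidney 1.05% of probesets were called male-biased and 0.796% female-biased, and the sexes did not overlap in 21% of expressed probesets. Muc2, Muc4, Muc13, Fcgbp, Agr2 and Spdef were not expressed there.

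**Figure D5:**
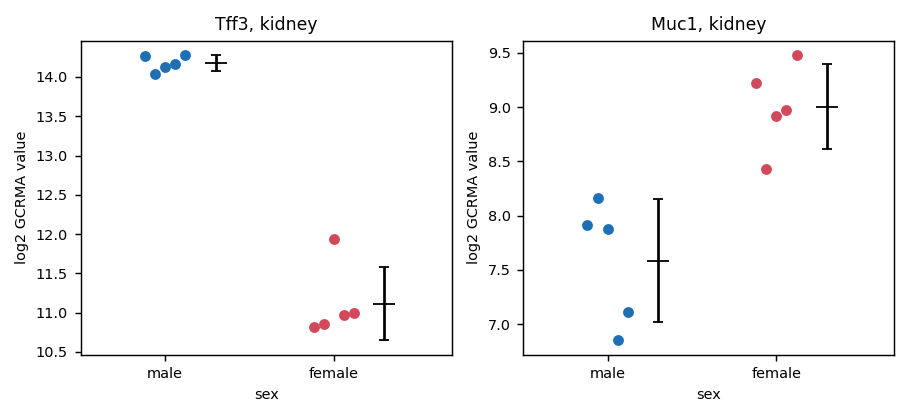
Tff3 (left) and Muc1 (right) in each kidney array, males blue and females red, as log2 GCRMA values, with mean and SD in black. The y axes differ. Male and female values do not overlap in either gene.

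In the duodenum 1 member, Muc13, was called, and it was higher in males. Here 2.27% of probesets were called male-biased and 0.503% female-biased. Muc13 read 12.49, 12.86, 12.93, 12.86 and 11.65 in males and 11.04, 10.93, 11.69 and 11.39 in females, so that male 5 fell below the highest female. Its difference was 1.29 ± 0.29 (adjusted p = 0.0323, limma). The call held without male 5 or female 3 and was lost without any of the other 7 duodenal rats, with an adjusted p of 0.091 without female 2. Muc2 (0.68 ± 0.13, adjusted p = 0.0165), Fcgbp (0.73 ± 0.14, adjusted p = 0.0184) and Tff3 (0.68 ± 0.17, adjusted p = 0.0477) were higher in males but under 2-fold, so not called. The sexes did not overlap in these genes, as in 25.1% of expressed probesets there. Agr2 and Spdef leaned to females, at -0.67 ± 0.34 and -0.87 ± 0.71, with adjusted p of 0.3 and 0.571. In the duodenal arrays with most Gkn1 (female 1, male 5, female 2 and male 1), Spdef read 9.97, 9.2, 9.11 and 8.38. Agr2 read 13.05, 12.88, 13.47 and 12.44 there. The remaining arrays ran from 6.91 to 8.48 for Spdef and from 11.63 to 12.66 for Agr2. The part of stomach tissue in these values was not tested.

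Other cell markers moved with sex in the duodenum. The enterocyte list had 10 of 13 genes called male-biased, with a median of 1.52, and its mean level ran from 11.89 to 12.93 in males and from 10.11 to 11.35 in females. The epithelium list had 1 of 11 genes called male-biased, with a median of 0.44, and its mean level ran from 12.36 to 12.69 in males and from 11.74 to 12.18 in females, without overlap. The gastric list ran from 3.09 to 7.39 in males and from 4.13 to 10.48 in females, and the acinar pancreas list from 10.76 to 12.68 and from 9.12 to 12.09. Without duodenum female 1, Muc13 was at 1.22 (adjusted p = 0.0562), Muc2 at 0.57 (0.0167), Fcgbp at 0.58 (0.00475) and Tff3 at 0.5 (0.02). With the gastric marker mean as a covariate, Muc13 was at 1.01 (adjusted p = 0.0332), Muc2 at 0.57 (0.0254), Fcgbp at 0.61 (0.0255) and Tff3 at 0.62 (0.1), all in limma. The part of enterocyte content and of epithelial content in the sex differences was not tested.

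Among related genes in the duodenum, Guca2a, Guca2b and Zg16 were male-biased by 2.93 ± 0.29, 1.71 ± 0.35 and 1.22 ± 0.18, and the tetraspanin Tspan1 was female-biased by 1.07 ± 0.27. The granule fusion gene Stx3 was higher in males by 1.11 ± 0.14. Pdia5 and C1galt1 were higher in females by 1.03 ± 0.26 and 1.14 ± 0.28. These 4 lists had medians between -0.31 and 0.25 over their expressed genes.

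Fcgbp in the stomach parted by sex without passing the adjusted test. Males read 9.58, 10.95, 9.84, 8.36 and 9.16 and females 7.12, 6.74, 7.28, 7.2 and 7.49. All males were above all females, by 2.41 ± 0.42 (adjusted p = 0.624, limma). In 1 fit over all 31 organs, which pools the spread, the same difference had an adjusted p of 8.39e-05. The shared probeset gave 2.51 ± 0.53. Marker lists also leaned to males in these stomachs, with 0 genes called. Medians over expressed genes were 2.03 for enterocyte, 1.79 for acinar pancreas, 1.39 for squamous and 0.71 for epithelium markers. The gastric list was at 0.14, and the smooth muscle and Paneth cell lists were at -0.16 and -0.5. The part of tissue content in the Fcgbp difference was not tested. The sex difference of Fcgbp was smaller in duodenum than in stomach by 1.68 ± 0.4, an interaction with an adjusted p of 0.00726 in limma, where 6.1% of probesets were called in this test and 2.45% were lower. It was the 1 member called there. Without the 3 arrays that stood apart it was at -1.82 (adjusted p = 0.00749), and Muc13 was then called too, at 2.48 (adjusted p = 1.85e-05). In 1 fit over all 31 organs the adjusted p for Fcgbp was 0.0995.

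In the skin Fcgbp leaned to females. Males read 11.1, 10.89, 10.68 and 9.5, and females read 12, 11.64, 11.52, 12.38 and 12.21. The sexes did not overlap and differed by -1.41 ± 0.34 (adjusted p = 0.164, limma). In the jejunum Muc13 did not overlap either, at 0.4 ± 0.07 (adjusted p = 0.102, limma). Over all expressed pairs of probeset and organ, the sexes did not overlap in 6.54%. The shares within skin, jejunum and stomach are not given here, so non-overlap in these organs is a description only. Muc4 in jejunum, below the expression threshold in both sexes, read 3.06 to 4.15 in males and 4.85 to 6.22 in females.

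The 4 arrays at odds with their sex label came from organs where no member was expressed. Each organ had its own fit, so leaving these arrays out could not change the 3 calls in kidney and duodenum. In jejunum, ileum, caecum and colon no member was called by sex in limma. Few probesets of any kind were called there. Jejunum and ileum each had 0.0258% male-biased and 0.0161% female-biased, and caecum and colon each had 0.00644% and 0.0161%. An unadjusted p below 0.05 in limma was found for 2 expressed members each in jejunum and ileum and 0 in caecum and colon.

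Over the means of 31 organs, the genes whose pattern was closest to each member, out of 11518 candidates, were found by Pearson correlation. For Muc2 they were the intestinal homeobox gene Cdx2 (Pearson r = 0.996), Muc13 (0.996) and Btnl8 (0.995). Muc13 had Btnl3 (0.997), Btnl8 (0.997) and Tm4sf20 (0.996). Tff3 had the brush border genes Cdhr5 (0.979) and Ush1c (0.97), and Lrrc19 (0.969). Agr2 had Lypd8 (0.967), Clca1 (0.95) and F2rl1 (0.944), and Fcgbp had Rbp2 (0.909), F2rl1 (0.908) and Ano9 (0.903).

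Spdef had partners about as close as those of Fcgbp, and Muc4 and Muc1 had weaker ones. The closest to Spdef were Creb3l4 (0.903), Fam83f (0.894) and Cblc (0.886), and Creb3l4 too had a high level in prostate, 9.44, beside 9.48 in colon. Muc4 was closest to the glycan sulfotransferase Chst4 (0.812), S100g (0.804) and Unc5cl (0.76), which like it were measured in uterus as well as gut: Chst4 was at 8.01 in uterus and 8.54 in colon. Muc1 was closest to Gp2 (0.757), Tmed6 (0.742) and Kcne1 (0.734). Among the members themselves r ran from 0.74 to 0.89 for Tff3 with Fcgbp, Agr2, Muc2 and Muc13, and was between -0.18 and 0.15 for Muc1 with any other. All these points share arrays and normalization, and most organs lie at background, so r is a description.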

How the data were processed

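The deposited values were log2 signals of 31042 probesets on RAE230_2 arrays, which the authors made from the scanned chips with GCRMA (version not given in the sources used here) after leaving out chips of poor quality. No counts or depth exist for arrays, and the number of arrays limits the precision. Array medians ran from 3.86 to 4.45 and values from 1.02 to 15.83. Of the probesets, 20826 had 1 gene symbol, 436 several and 9780 none in the platform annotation. All 8 genes were found in the RefSeq table (GRCr8).

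Groups came from sample titles, which give organ, sex and a number that was read as the animal. The members and all gene lists were chosen with earlier results of these data known. limma 3.58.1 in R 4.3.3 fitted the 58 gut arrays by segment and sex, and each of 26 organs by sex. Calls needed a mean above a linear signal of 100.4, a 2-fold difference and a Benjamini-Hochberg adjusted p under 0.05. Sex labels were checked with Xist and Eif2s3y. The fits were tested on simulated data. Named genes were the members, for each the 3 genes with the highest Pearson r over organ means, and from each list up to 3 called genes in each direction in large minus small intestine and up to 3 in the duodenal sex comparison. Alternatives were quantile normalization, other thresholds, 1 fit over all organs, the methods' t-test, an animal block, a gastric covariate and leaving out each animal number or the arrays that stood apart; leaving out arrays that stood apart, and gastric markers as a covariate, were chosen after seeing the data. Arrays of 1 animal number and sex were taken to come from the same rat, which the titles do not state. Their deviations over 9715 probesets had a median r of 0.11 across segments (140 pairs, 72 above 0.1). Different numbers of 1 sex had a median r of -0.03 (560 pairs, 112 above 0.1).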

Additional observations from a re-analysis of the deposited data

Results flagged for a closer look

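In 17 of 77 combinations of member, gut segment and sex, the highest or lowest array lay beyond the critical gap for its group size. Chance gives that in about 1 of 20 independent groups. The members share the same arrays, so the 77 are not independent and 17 of 77 is not matched to that rate. In the stomach the arrays that stood out were male 1 for Muc2 (7.91) and Muc13 (7.44) and female 1 for Muc1 (7.46), Agr2 (10.7) and Spdef (3.5). Duodenum female 1 stood out for Muc1 (9.51) and Fcgbp (12.55). Caecum female 3 was lowest for Muc2 (12.05) and Spdef (6.18), while caecum male 4 was highest for Muc2 (13.64) and caecum male 5 for Fcgbp (13.92).

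In the colon, male 4 was highest for Muc2 (14.51) among males and male 5 lowest for Agr2 (12.05). Jejunum male 3 was highest for Muc13 (12.82) and jejunum female 1 for Fcgbp (13.57). In the ileum, male 2 was highest for Muc13 (13.08) and female 2 lowest for Tff3 (13.48).

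The sex difference of Fcgbp differed between duodenum and stomach by -1.68 in a test of the interaction: males were above females by 0.73 in duodenum and by 2.41 in stomach.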

How the results depend on the processing

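The number of arrays, 3 to 10 in an organ, limits what these comparisons can show, and signals near background carry little order. Across 2071 values of single members under other settings, 32 calls were lost, 14 were gained and 41 differences turned sign, none of them a called one. The cause was not tested for any of the changes below. With 1 fit over all 31 organs, male-biased calls went from 2 to 4 and 1 member, from 0, was called higher in the sex-by-segment test of duodenum against jejunum. Without an expression threshold, 2 folding and granule genes instead of 1 were lower in large against small intestine, and 1 O-glycosylation gene instead of 0 was lower in colon than caecum. At 1.5-fold, large against small intestine gave 1 member higher and 2 lower, 5 goblet cell products lower, 5 regulators higher and 2 lower, 3 folding and granule genes lower and 5 O-glycosylation genes lower. Caecum against ileum then gave 2 members lower, and colon against caecum 2 regulators lower, 6 folding and granule genes higher and 1 O-glycosylation gene lower, with 5 male-biased calls, 4 of them in the duodenum. At an adjusted p below 0.01, 0 members were lower in caecum than ileum, and the sex calls were 1 male-biased, 0 female-biased and 0 in the duodenum. With the mean of all probesets of a gene, 0 regulators and 1 O-glycosylation gene were lower in large against small intestine. The methods' t-test, after Benjamini-Hochberg adjustment, gave 1 male-biased call and 0 in the duodenum. Without the 3 gut arrays that stood apart there was also 1 male-biased call and 0 in the duodenum, and 1 member was higher in the test of duodenum against stomach. By Spearman rho, 1 of the 3 genes most like Tff3, Fcgbp and Agr2 each was the same, and 0 for the other 5 members.

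Rats, as read from the numbers in the titles, paired the gut arrays within a sex. With the rat as a random replicate block the correlation was 0.002 and no call changed over 75 values, as with Muc2 in colon minus caecum at 1.03. Males and females share only a number. With that number as a block the sex calls were 1 male-biased (Tff3 in kidney), 0 female-biased and 0 in the duodenum.

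No difference whose sign turned had passed a call. Fcgbp in jejunum minus duodenum was at -0.01 after quantile normalization and -0.05 without the 3 arrays. Without those arrays the test of duodenum against stomach gave 0.71 for Muc2, 0.7 for Muc1 and 0.38 for Tff3, that against ileum gave -0.13 for Muc4, and the sex differences in stomach were -0.12 for Muc1 and -0.08 for Agr2. Leaving out 1 rat gave ranges across 0 as follows. Agr2 in large minus small intestine ran from -0.05 to 0.15. In jejunum minus duodenum Agr2 ran from -0.14 to 0.06 and Fcgbp from -0.08 to 0.09. In ileum minus jejunum Fcgbp ran from -0.1 to 0.02 and Tff3 from -0.08 to 0.02. In duodenum against stomach Muc2 ran from -0.7 to 0.76, Tff3 from -1.2 to 0.13 and Muc1 from -2.57 to 0.76, and in duodenum against ileum Muc4 ran from -0.14 to 0.58. By sex, caecum gave -0.33 to 0.07 for Muc2 and -0.34 to 0.05 for Agr2. Colon gave -0.38 to 0.03 for Tff3, -0.35 to 0.12 for Agr2 and -0.03 to 0.22 for Muc2, and stomach gave -0.18 to 0.73 for Muc1.

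Counts of calls moved as follows when 1 rat was left out. Members lower in caecum than ileum ran from 0 to 1, and members higher in duodenum than stomach from 5 to 6. In colon against caecum, members higher ran from 2 to 3, goblet cell products lower from 3 to 4, O-glycosylation genes higher from 4 to 8, O-glycosylation genes lower from 0 to 1, folding and granule genes higher from 1 to 3, and regulators lower from 0 to 1. In large against small intestine, goblet cell products lower ran from 1 to 3, goblet cell products higher from 6 to 7 and regulators higher from 2 to 3. In the sex-by-segment tests, members higher ran from 0 to 1 against colon and from 0 to 1 against stomach, and lower from 1 to 2 against stomach. Male-biased calls ran from 1 to 2, and those in the duodenum from 0 to 1.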

Other observations

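Some genes often read with goblet cells were also high where Muc2 was at background, and are given here as values chosen after they were seen. Zg16, the zymogen granule lectin, was at 14.28 ± 0.1 (SD) in pancreas, above its highest gut segment, the ileum, at 13.71 ± 0.26. Clca1 was at 12.43 ± 1.13 in stomach, close to colon at 12.03 ± 0.49 and below ileum at 13.53 ± 0.25. Tff2, a trefoil peptide of gastric mucous cells, was at 12.87 ± 1.26 in stomach, and its pancreas arrays ran from 13.91 to 14.22. Among segments where Muc2 was expressed, it was at 12.25 ± 3.2 in duodenum and 12.96 ± 0.54 in caecum. Jejunum, ileum and colon were at 3.03 ± 1.55, 3.39 ± 2.35 and 5.03 ± 3.41.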
